A study of Homo sapiens with 4 samples.

Results

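The GADD45 family holds the growth arrest and DNA damage inducible genes GADD45A, GADD45B and GADD45G. These genes were followed with a pair of partners, the kinase gene MAP3K4 and GADD45GIP1, in human prostate cancer cells exposed to morusin. The 5 genes were taken by name, as the table rows whose Ensembl ID maps to them, and all 5 were found among 60617 gene IDs. Expression was deposited as FPKM, fragment counts scaled to transcript length and to the library's total, with 1 library in each of 4 groups. The groups were 22Rv1 cells left untreated or given 75 µM morusin, and PC3 cells left untreated or given 46 µM morusin, all taken at 6 h. 22Rv1 is a prostate carcinoma line that came out of a xenograft, and PC3 comes from a bone metastasis. Morusin is a prenylated flavone of mulberry. The labels name no vehicle for the untreated cells. 22Rv1 was kept in RPMI and PC3 in F12, so dose and medium cannot be told apart from the line.

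GADD45 proteins are small, acidic proteins without known enzyme activity that are made in response to DNA damage, osmotic stress, cytokines and other stresses. They bind the amino-terminal part of MAP3K4 (also called MEKK4 or MTK1), which relieves its autoinhibition and lets it activate the MAP2 kinases upstream of p38 and JNK. They also bind PCNA and the CDK1 and cyclin B complex and have been linked to cell cycle arrest, excision repair and DNA demethylation. GADD45A was described as a gene induced by DNA damage, GADD45B was described as a gene induced by NF-kB and TGF-beta signals, and GADD45G was described as a cytokine-responsive gene. GADD45GIP1 (CRIF1) was found as a nuclear GADD45-binding protein and is also a subunit of the large mitochondrial ribosomal subunit.

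Depth, estimated from the steps between low FPKM values, lay between 19.1 M (treated 22Rv1) and 40.6 M read pairs (untreated PC3), M standing for mega. By these rough depths and the longest annotated transcript, the members above 0 rested on 116 to 4100 pairs, and the 95% intervals below cover counting error only. The line labels were checked against markers. Of 13 prostate and line markers, 9 were at least 2-fold higher in untreated 22Rv1 and 2 in untreated PC3. Over all measured genes the shares were 19.8% and 19.2%. KLK4, a prostate kallikrein gene, was at 288 and 429 FPKM in untreated and treated 22Rv1 and at 0.0173 and 0 FPKM in PC3, and the epithelial keratin KRT8 was between 107 and 137 FPKM in all 4 libraries. Of 14 leukocyte, fibroblast and endothelial markers, 2 were at 0 in every library, VWF and CDH5. Their summed level was 3.52 and 3.66 FPKM in 22Rv1 and 31.6 and 43.4 FPKM in PC3, of which CD68, a lysosomal protein gene that is not limited to leukocytes, made 26.0 and 39.9 FPKM. The leukocyte gene PTPRC was highest in untreated PC3, at 0.052 FPKM. In bulk RNA, a smaller share of cells with a transcript and less of it per cell cannot be told apart.

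The promoters of the members are given first, and the windows of GADD45B and GADD45G are printed. Whether their motifs bear on the changes described below was not tested. RefSeq promoter sequences (GRCh38.p14) matched 4 of the 5 members, and GADD45A had no entry. The 250 bases upstream of the annotated start are printed 5′ to 3′ on the gene's strand, with motif matches in capitals. They lie at chr19:2475877-2476126 for GADD45B and chr9:89604762-89605011 for GADD45G, both on the plus strand.
GADD45B: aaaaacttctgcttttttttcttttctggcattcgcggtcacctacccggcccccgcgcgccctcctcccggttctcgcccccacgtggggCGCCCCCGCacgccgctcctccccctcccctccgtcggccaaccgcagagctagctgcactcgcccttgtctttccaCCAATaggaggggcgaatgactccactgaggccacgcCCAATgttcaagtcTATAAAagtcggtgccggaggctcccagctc
GADD45G: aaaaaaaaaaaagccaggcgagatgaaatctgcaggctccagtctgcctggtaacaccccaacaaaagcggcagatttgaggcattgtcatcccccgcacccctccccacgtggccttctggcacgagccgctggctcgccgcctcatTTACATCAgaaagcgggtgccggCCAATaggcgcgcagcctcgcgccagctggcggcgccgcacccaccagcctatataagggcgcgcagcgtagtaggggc
Letters were searched on both strands. The CCAAT box was searched as CCAAT. The TATA motif was searched as the letters TATAAA. For SP1 the letters were GGGCGG, and for EGR1 they were GCGNGGGCG. For AP-1 they were TGANTCA, and for the cyclic AMP element, CRE, they were TGACGTCA. The CARE site, bound by ATF4 and CHOP, was searched as TGATGNAA. NF-kB was searched as GGNNTTTCC and the heat shock element core as GAANNTTC. No matches overlap in the windows shown.

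The GADD45B window held 2 CCAAT boxes, starting 82 and 45 bases before the start, a TATA match at 31 bases and an EGR1 match at 159 bases on the opposite strand. The GADD45G window held 1 CCAAT box at 79 bases and 1 CARE match at 102 bases on the opposite strand. Among 35116 promoter windows of the same length, 32.0% held a CCAAT box, 10.7% a TATA match, 8.41% an EGR1 match and 3.14% a CARE match. The other motifs were not matched in these windows, which says only that these letters are not there. The GADD45G window holds tatataag near its end, which the exact letters TATAAA do not match. AP-1 was matched in 6.57% of all windows, CRE in 1.65%, NF-kB in 5.48%, the heat shock core in 5.78% and SP1 in 42.6%. MAP3K4 held 3 SP1 matches and no other motif, in a window of 78.4% G and C. GADD45GIP1 held 1 SP1 and 1 TATA match.

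GADD45B had the largest change of the 5 genes in both lines. It (ENSG00000099860) lies on chromosome 19 (GRCh38, 2476122 to 2478259, plus strand) and was at 5.43 FPKM in untreated and 50.4 FPKM in treated 22Rv1, and at 13.6 and 71.3 FPKM in untreated and treated PC3. Both treated libraries were thus above both untreated ones. The log2 change of FPKM + 1 was 3.0 in 22Rv1, rank 30 of 13361 measured genes from the highest, and 2.30 in PC3, rank 37 of 12907. A gene counted as measured in a line if either of its libraries reached 1 FPKM, and the added 1 understates the change of low genes. As plain FPKM ratios, GADD45B was 9.27-fold higher in treated 22Rv1 and 5.23-fold higher in treated PC3, with 95% counting intervals of the log2 ratio from 3.03 to 3.40 and from 2.29 to 2.48. With 1 library per group, a change within a line has no replicate check and no test.

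Whether the lines shared a response could be tested, with limma on log2(FPKM + 1) and the line as a block, over 13980 genes and with 1 residual degree of freedom before variance was shared across genes. Its p-values rest on how far the lines differ in their change, with variance shared across genes. They hold no spread between repeat cultures of a condition. GADD45B rose, by 2.65 log2 units (SE 0.224, adjusted p = 0.000919 after Benjamini-Hochberg adjustment over all genes tested, rank 14 by p), and was higher in 2 of 2 lines. It was the 1 member of 5 called by limma at 0.05, against a background of 0.351% of genes called higher and 0.236% called lower. The call held in 7 of 9 alternative settings and was lost without a filter on low values (adjusted p = 0.657) and without the line term (adjusted p = 1).

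GADD45A differed more between the lines. The gene (ENSG00000116717) lies on chromosome 1 (67685061 to 67688338, plus strand) and was at 6.83 FPKM in untreated and 11.2 FPKM in treated 22Rv1, and at 23.1 and 90.2 FPKM in untreated and treated PC3. Untreated PC3 was thus above treated 22Rv1, and treated PC3 stood highest. The log2 change was 0.64 in 22Rv1 (rank 1523) and 1.92 in PC3 (rank 52), so that the change in PC3 was larger by 1.28 log2 units. With 1 library per group this difference could not be tested. The 95% counting intervals of the log2 FPKM ratio, 0.47 to 0.95 in 22Rv1 and 1.88 to 2.05 in PC3, did not overlap, but they hold no spread between cultures. In the shared test the estimate was 1.28 (SE 0.289) and was not called, with limma's adjusted p = 0.112. Its adjusted p was below 0.05 in 4 of 9 alternatives, namely the 3 other scalings (0.000739 to 0.0332) and a filter at 5 FPKM (0.0373).

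GADD45G was seen in 22Rv1 and listed at 0 in both PC3 libraries. It (ENSG00000130222) lies on chromosome 9 (89605013 to 89606555, plus strand) and was at 4.63 FPKM in untreated and 9.55 FPKM in treated 22Rv1. The log2 change of FPKM + 1 was 0.90 in 22Rv1 (rank 659), below the 2-fold size. The plain FPKM ratio was 2.06-fold, with a 95% counting interval of the log2 ratio from 0.71 to 1.37, so the side of 2-fold on which it lies depends on the added 1. No fold is given for PC3. The shared estimate of 0.45 (SE 0.238, limma adjusted p = 0.339) averages the 22Rv1 change with a PC3 value fixed at 0, since the gene passed the filter through its 22Rv1 libraries alone.

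**Figure D1:**
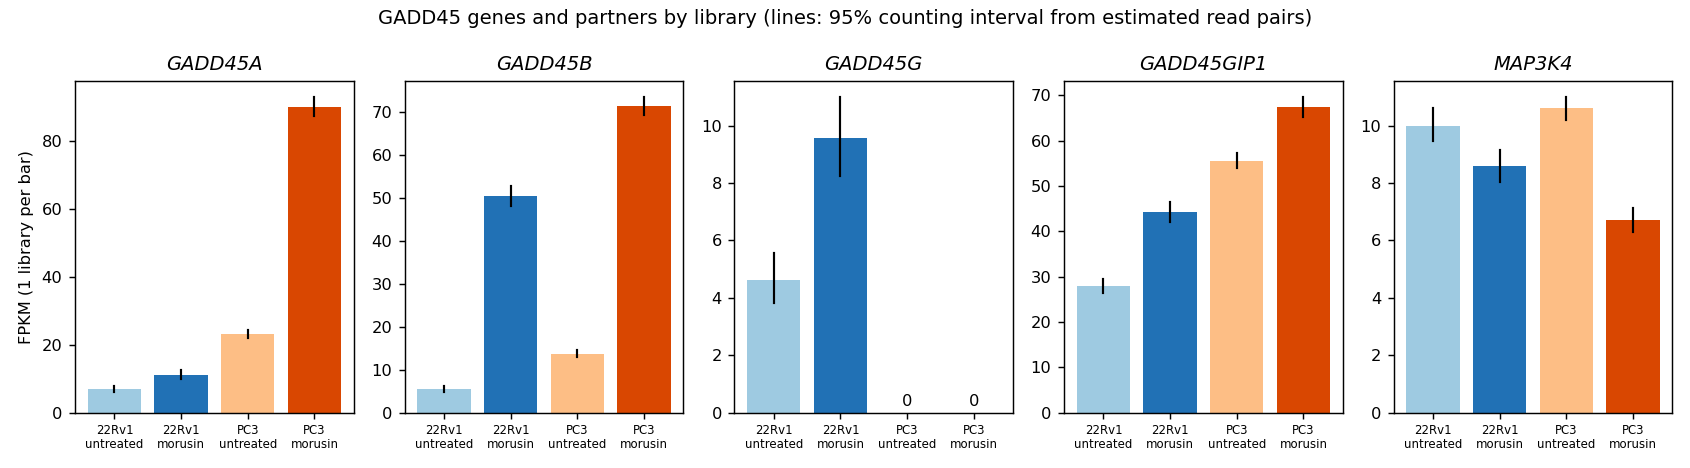
FPKM of each member (vertical axes, separate scale per gene, starting at 0) in the 4 libraries, 1 library per bar, with vertical lines for the 95% counting interval from estimated read pairs. GADD45B stands at 50.4 and 71.3 FPKM in the treated libraries against 5.43 and 13.6 FPKM in the untreated ones, while GADD45G is listed at 0 in PC3.

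The partners moved less. GADD45GIP1 (ENSG00000179271), on chromosome 19 (12953119 to 12957236, minus strand), was at 27.9 FPKM in untreated and 44.2 FPKM in treated 22Rv1, and at 55.6 and 67.4 FPKM in untreated and treated PC3. The log2 changes were 0.65 and 0.27, and limma gave a shared estimate of 0.46 (SE 0.193, adjusted p = 0.251), which is not a call. MAP3K4 (ENSG00000085511), on chromosome 6 (160991727 to 161117385, plus strand), was at 10.0 FPKM in untreated and 8.58 FPKM in treated 22Rv1, and at 10.6 and 6.70 FPKM in untreated and treated PC3. It was the 1 member with lower values in both treated libraries, with log2 changes of -0.20 and -0.59 and a shared estimate of -0.40 (SE 0.221, limma adjusted p = 0.367). The antisense gene MAP3K4-AS1 overlaps its start and was at 0.973, 0.929, 0.447 and 0.412 FPKM in untreated and treated 22Rv1 and untreated and treated PC3. The sources used here do not say whether counting was stranded, and without strand the reads of this overlap cannot be told apart.

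By size, 1 of 5 measured members was at least 2-fold higher in treated 22Rv1, GADD45B, and 2 of 4 in treated PC3, GADD45B and GADD45A. No member was at least 2-fold lower in either line. Over all measured genes, the share past 2-fold was 3.48% upward and 1.02% downward in treated 22Rv1, and 1.24% upward and 2.64% downward in treated PC3. The median change was 0.65 over the 5 members measured in 22Rv1 and 1.10 over the 4 in PC3, without GADD45G. For all measured genes it was -0.01 and -0.05. This split depended on scaling. In 22Rv1, 77.4% of the genes past 2-fold were higher as deposited and 42.1% were higher with FPKM sums made equal, which moved the median of all genes to -0.18 (in PC3 to -0.14). Under that scaling GADD45B was at 2.81 in 22Rv1 and 2.22 in PC3, and GADD45A at 0.46 and 1.83.

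**Figure D2:**
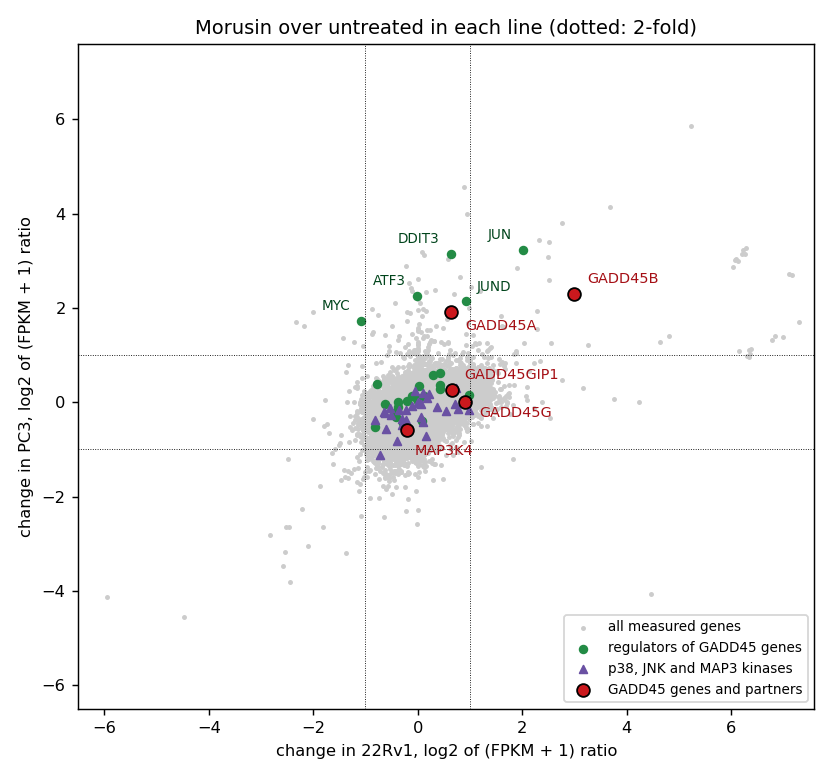
Log2 change of FPKM + 1 with morusin in 22Rv1 (horizontal) and PC3 (vertical) for all measured genes in grey, regulators of GADD45 genes in green, p38, JNK and other MAP3 kinases in purple and the 5 members in red, with dotted lines at 2-fold. GADD45B lies past 2-fold in both lines (3.0 and 2.30), GADD45A in PC3 alone (1.92), and GADD45G is drawn at 0 for PC3 because it is listed at 0 there.

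The untreated lines differed in the family. These comparisons share their untreated libraries with the changes above. GADD45A was 3.38-fold and GADD45B 2.51-fold higher in untreated PC3 as FPKM ratios, and GADD45GIP1 1.99-fold higher. MAP3K4 was at 10.0 and 10.6 FPKM, with a 95% counting interval of the log2 ratio from -0.18 to 0.02. On the FPKM + 1 scale, GADD45G was at least 2-fold higher in untreated 22Rv1 and GADD45A and GADD45B in untreated PC3, which is 1 and 2 of 5 members. With median-ratio size factors 3 members were at least 2-fold higher in untreated PC3, since GADD45GIP1 reached -1.12 (22Rv1 over PC3; -0.97 as deposited). At that size, 19.8% of 14363 genes were higher in untreated 22Rv1 and 19.2% in untreated PC3.

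FPKM is per length, so the levels of different genes can be set side by side. In untreated 22Rv1 the order of FPKM levels was GADD45GIP1, MAP3K4, GADD45A, GADD45B and GADD45G, and the counting intervals of GADD45A and GADD45B, and of GADD45B and GADD45G, overlapped. After treatment GADD45B stood first at 50.4 FPKM, above GADD45GIP1 at 44.2 FPKM. GADD45A, GADD45G and MAP3K4 followed, each overlapping its neighbour in counting error. In untreated PC3 the order was GADD45GIP1, GADD45A, GADD45B and MAP3K4, with no overlap. In treated PC3 it was GADD45A, GADD45B, GADD45GIP1 and MAP3K4, with an overlap of GADD45B and GADD45GIP1. Among genes with 1 FPKM or more, GADD45B stood above 33.4% of genes in untreated and 88.6% in treated 22Rv1, and above 60.4% and 93.0% in untreated and treated PC3. GADD45A stood above 39.4% and 56.0% in 22Rv1 and above 75.3% and 94.6% in PC3. MAP3K4 stayed near the middle, above 40.5% to 52.1% of genes in the 4 libraries.

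The summed FPKM of GADD45A, GADD45B and GADD45G was 16.9 in untreated and 71.1 in treated 22Rv1, and 36.7 and 162 in untreated and treated PC3. The sum was 4.21-fold higher in treated 22Rv1 and 4.40-fold higher in treated PC3, while the shares of the genes differed. GADD45B made up 32.2% of the sum in untreated and 70.9% in treated 22Rv1, while GADD45A went from 40.4% to 15.7% and GADD45G from 27.4% to 13.4%. In PC3, GADD45B made up 37.1% and 44.2% in untreated and treated cells, and GADD45A 62.9% and 55.8%. In treated 22Rv1 there was 4.51 times as much GADD45B as GADD45A in FPKM, and in treated PC3 0.791 times. These shares come from 1 library each and were not tested.

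**Figure D3:**
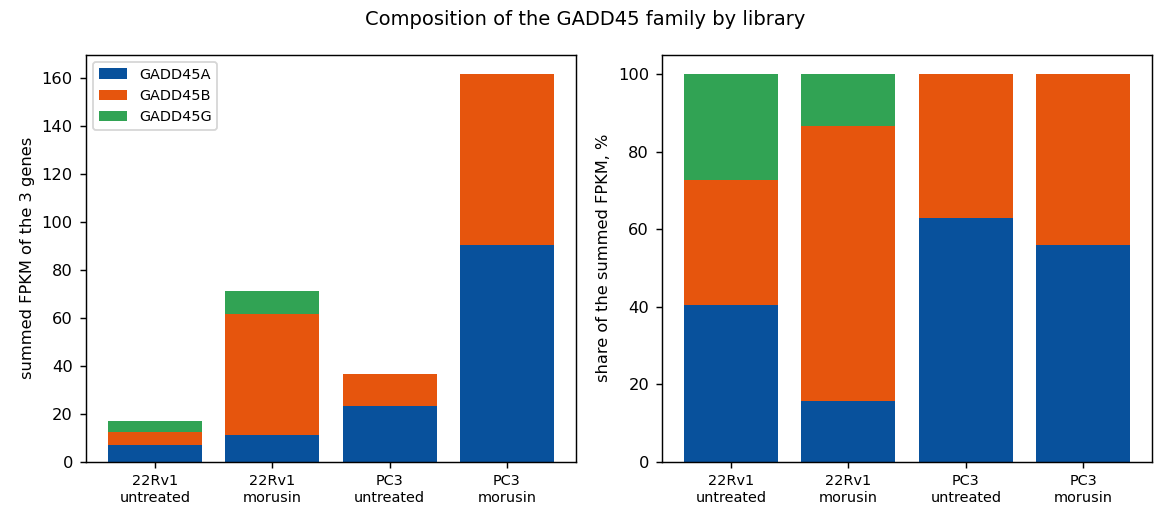
Summed FPKM of GADD45A (blue), GADD45B (orange) and GADD45G (green) in the 4 libraries (left) and the share of each in that sum in percent (right). GADD45B is the largest part of treated 22Rv1 (70.9%) and GADD45A of treated PC3 (55.8%), while the summed level is 71.1 and 162 FPKM.

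The kinases below MAP3K4 showed no change of the size seen for GADD45B. Of 14 genes of the p38 and JNK cascade, 13 were measured in each line, with medians of -0.11 in 22Rv1 and -0.18 in PC3. On the FPKM + 1 scale none was 2-fold changed in either line. Below 0 were 7 (53.8%) in 22Rv1 and 10 (76.9%) in PC3, beside 50.6% and 55.8% of all measured genes. As plain FPKM ratios in 22Rv1, MAP2K6 was 2.36-fold lower (1.70 to 0.722 FPKM) and MAPK13 2.02-fold higher (0.821 to 1.65 FPKM). For these low genes the side of 2-fold depends on the added 1. Limma called 0 of 13 tested. Of all 13980 genes tested, 2587 (18.5%) had an unadjusted p below 0.05, beside which 3 of these 13 (23.1%) did. MAPK14, which codes for p38 alpha, was at 13.7 and 10.1 FPKM in untreated and treated 22Rv1 and at 19.5 and 10.7 FPKM in PC3. MAP2K4, a kinase that activates JNK and p38, was at 10.2 and 6.38 FPKM in 22Rv1 and at 9.47 and 6.05 FPKM in PC3. MAPK11, which codes for p38 beta, was at 25.1 and 43.9 FPKM in 22Rv1 and at 3.79 and 3.30 FPKM in PC3. MAPK14, MAP2K4, MAP2K6 and MAPK13 were named here after their values were seen.

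MAP3K4 was set beside 17 other MAP3 kinases. Of these, 14 were measured in 22Rv1 and 15 in PC3, with medians of -0.14 and -0.17, and 8 of 14 and 13 of 15 were below 0, beside 50.6% and 55.8% of all measured genes. On the FPKM + 1 scale 1 passed the 2-fold size, MAP3K9 in PC3, beside 2.64% of all measured genes 2-fold lower there. It was at 5.46 FPKM untreated and 1.98 FPKM treated (5.14 and 2.70 FPKM in 22Rv1). As plain FPKM ratios in 22Rv1, MAP3K6 was 2.10-fold higher (7.49 to 15.7 FPKM) and MAP3K2 2.01-fold lower (5.83 to 2.90 FPKM). Both were named after their values were seen. Limma called 0 of 15, with 3 at an unadjusted p below 0.05, a share near the 18.5% of all genes. The log2 changes of MAP3K4, -0.20 and -0.59, lay inside the ranges of these kinases, -0.81 to 0.98 in 22Rv1 and -1.12 to 0.25 in PC3.

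Of 26 transcription factors reported to act on GADD45 genes, 23 were measured in 22Rv1 and 22 in PC3. On the FPKM + 1 scale in 22Rv1, 1 was past 2-fold upward (JUN) and 1 downward (MYC), with a median of -0.01. Of all measured genes, 3.48% were past 2-fold upward and 1.02% downward there. In PC3, 5 were at least 2-fold higher and 0 lower, with a median of 0.20. All measured genes had 1.24% higher and 2.64% lower in PC3. Limma called 1 of 24 tested, against 0.351% of all genes called higher. By unadjusted p below 0.05 there were 7 (29.2%), against 18.5% of all genes. The call was JUN, an AP-1 subunit, which rose by 2.62 log2 units (SE 0.275, adjusted p = 0.00324). JUN was at 10.3 and 44.5 FPKM in untreated and treated 22Rv1 and at 22.7 and 221 FPKM in PC3. Its relative JUND was at 29.3 and 56.8 FPKM in 22Rv1 and at 16.7 and 76.9 FPKM in PC3 (limma adjusted p = 0.0565).

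DDIT3, like GADD45A, had a larger upward change in PC3 than in 22Rv1, by size and without a test. ATF3 was higher in treated PC3 and near its untreated level in 22Rv1. By the FPKM values above, JUN and JUND also rose more in PC3, so a larger rise there is not particular to DDIT3 and ATF3. DDIT3, the CHOP factor, was at 16.4 and 25.9 FPKM in untreated and treated 22Rv1 and at 8.33 and 82.1 FPKM in PC3. ATF3, a stress-induced factor of the CREB family, was at 10.8 and 10.7 FPKM in 22Rv1 and at 5.40 and 29.5 FPKM in PC3. ATF4, the translationally controlled factor upstream of both, was at 188 and 253 FPKM in 22Rv1 and at 71.1 and 92.1 FPKM in PC3. MYC, reported to repress GADD45A, was at 149 and 69.6 FPKM in 22Rv1 and at 65.7 and 219 FPKM in PC3.

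The genes of the proteins that GADD45 proteins bind in the cell cycle showed no change past 2-fold. Limma called 0 of 5, with 0 at an unadjusted p below 0.05. PCNA, the replication clamp, was at 239 and 236 FPKM in untreated and treated 22Rv1 and at 88.2 and 104 FPKM in PC3. CDKN1A, which codes for the p21 inhibitor of cyclin-dependent kinases, was at 16.2 and 8.93 FPKM in 22Rv1 and at 6.76 and 10.1 FPKM in PC3. The 13 genes of DNA demethylation and repair had no member past 2-fold on the FPKM + 1 scale, with medians of -0.19 in 22Rv1 and -0.06 in PC3. Limma called 0 of 11, with 3 (27.3%, all genes 18.5%) at an unadjusted p below 0.05. TET3, which oxidises methylcytosine, was at 10.9 and 6.02 FPKM in 22Rv1 and at 2.75 and 1.48 FPKM in PC3. TET3 was named after its values were seen.

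GADD45GIP1 lay within the spread of the particle it belongs to. The 51 genes of the large mitochondrial ribosome subunit had a median change of 0.50 in 22Rv1 and 0.23 in PC3, with 41 (80.4%) and 42 (82.4%) above 0, beside 49.4% and 44.2% of all measured genes. At 0.65 and 0.27, GADD45GIP1 had 13 of these genes above it in 22Rv1 and 19 in PC3. Only MRPL41 and MRPL53 passed 2-fold, in 22Rv1, with log2 changes of 1.10 and 1.09. These are 2 of 51, beside 3.48% of all measured genes 2-fold higher in 22Rv1. Limma called 0 of 51, with 16 (31.4%) at an unadjusted p below 0.05, where 18.5% of all genes had one. MRPL53 was at 17.9 and 39.0 FPKM in untreated and treated 22Rv1 and at 11.1 and 18.5 FPKM in PC3.

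**Figure D4:**
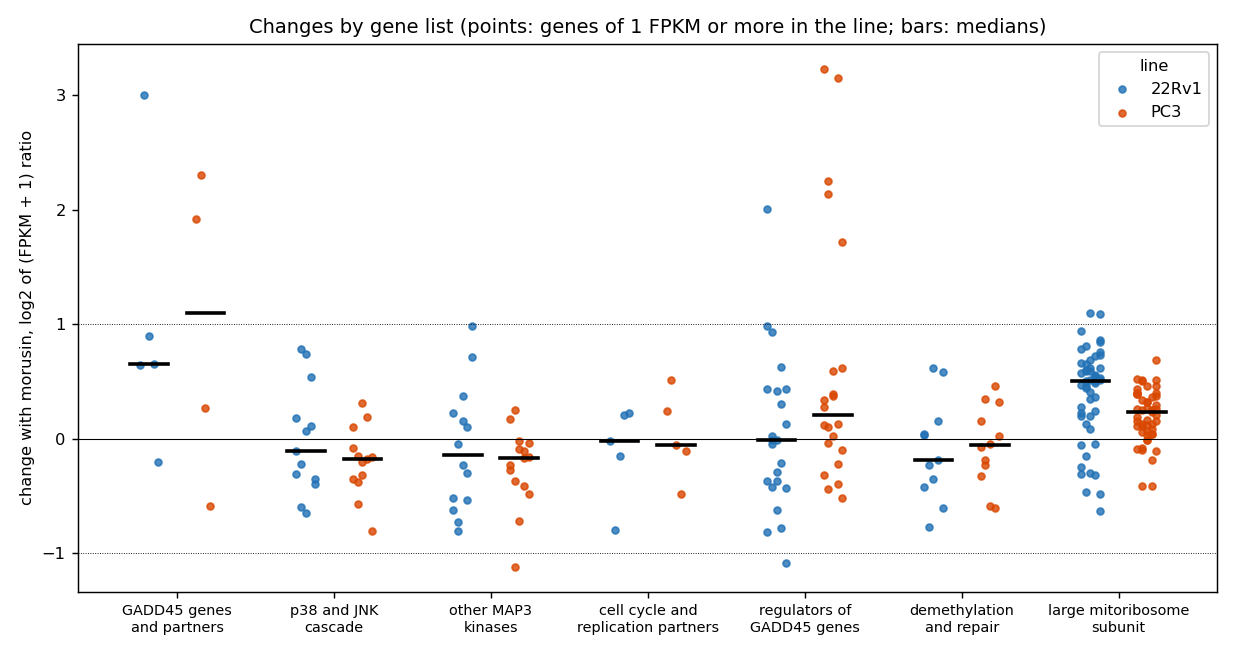
Log2 change of FPKM + 1 with morusin (vertical) for each gene of each list, in 22Rv1 (blue) and PC3 (orange), with black bars at list medians and dotted lines at 2-fold. The kinases lie between the 2-fold lines apart from MAP3K9 in PC3 (-1.12), and the large mitochondrial ribosome subunit has medians of 0.50 and 0.23.

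The genes most like each member were found by the Euclidean distance between log2(FPKM + 1) profiles over the 4 libraries, each gene centred on its mean, among 10447 genes reaching 5 FPKM in a library. With 4 points per gene the likeness is a description, and genes of unequal level can share a profile. Nearest to GADD45A were ADM, the vasodilator peptide adrenomedullin (distance 0.39), and PPP1R15A (0.48), followed by NR1D1, IL24 and CLDN14 (0.54 to 0.66). PPP1R15A is the eIF2 phosphatase subunit also named GADD34, and was at 8.36 and 17.9 FPKM in untreated and treated 22Rv1 and at 29.2 and 163 FPKM in PC3. ADM was at 0.0387 and 1.06 FPKM in 22Rv1 and at 3.28 and 16.3 FPKM in PC3. IL24 and CLDN14 were listed at 0 in both 22Rv1 libraries, so their likeness rests on the PC3 libraries.

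Nearest to GADD45B was the metallothionein MT1X (0.46), at 7.39 and 47.1 FPKM in untreated and treated 22Rv1 and at 16.2 and 103 FPKM in PC3. MIR324, a small RNA locus whose FPKM is uncertain, and the HSP70 genes HSPA1B, HSPA1A and HSPA7 followed at 0.85 to 1.08. HSPA1A was at 66.9 and 389 FPKM in 22Rv1 and at 136 and 1439 FPKM in PC3. HSPA1A and HSPA1B are near-identical copies, so reads may be split between them. Nearest to GADD45G were APOC1 and MAPK11 (0.14 each), then CHRNE, VCX3B and PNCK (0.16 to 0.18). MAPK11, the p38 beta gene, was the 1 kinase of the p38 and JNK list among the 25 nearest genes. GADD45GIP1 was nearest to UBALD2, EIF3H, GALK1, MTHFS and PRDX5 (0.05 to 0.09), and MAP3K4 to SMYD5, SLC6A9, KDM2B, COG6 and TBC1D20 (0.06 to 0.07). Among the members, the smallest distance was between GADD45GIP1 and MAP3K4 (1.24), and GADD45A and GADD45B stood 2.21 apart. A small distance need not mean a shared direction. The log2 changes in 22Rv1 and PC3 were 0.65 and 0.27 for GADD45GIP1 and -0.20 and -0.59 for MAP3K4.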

How the data were processed

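RNA of 4 libraries was read as paired reads of 150 bases per the labels' protocols. The submitters' processing notes name Trimmomatic, HISAT2, StringTie and GRCh38, without versions or roles. The authors deposited FPKM values for 60617 Ensembl IDs, 1 column per library. FPKM is relative to each library's total, so abundant transcripts move all other values. Symbols came from a gene name table (60261 IDs matched), the highest row being used for 72 repeated symbols, and positions from GENCODE 29.

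Change was log2 of the ratio of FPKM + 1, with 2-fold as the size threshold, over genes of 1 FPKM or more in at least 1 library compared. The shared response used limma 3.58.1 in R 4.3.3 on log2(FPKM + 1), fitting a line and a treatment term with a mean trend, over genes of 1 FPKM or more in at least 2 libraries, at an adjusted p of 0.05. Same-line libraries are paired by the labels' cell line. The script was tested on simulated data with an assumed noise SD of 0.25 log2 units. Limma recovered 50 of 50 genes raised and 50 of 50 lowered by 2 log2 units. At 1 log2 unit it recovered 38 of 50 raised and 31 of 50 lowered, with 8 calls among unchanged genes. A 2-fold change can thus be missed. Depth was read from single-exon genes of 600 to 5000 bases. The step of FPKM times length with the most values at it or at its midpoint, within 1.5%, was taken as 1 read pair. Only 57 to 81 values per library, among 1210 to 1548 low ones, sat at the step, and 41 to 59 at its midpoint. Whether the step is 1 read pair was not tested, so depths and counting intervals are rough.

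Members and 8 lists were chosen with earlier results of these data known. Named were the members, up to 6 list genes past 2-fold in a line, and the 5 genes nearest each member; other list genes are described as background or were named after their values were seen. Some listed genes are not reported here. Alternatives were 2 pseudocounts, 3 scalings, 2 filters, no trend and no line term. Identity between the GADD45 proteins, which had been planned, was not computed, and their sequences are not used here. Python 3.11.15, numpy 2.4.6, pandas 2.3.3 and matplotlib 3.10.9 were used.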

Additional observations from a re-analysis of the deposited data

Results flagged for a closer look

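Among the members and the listed genes, 2 genes moved by at least 0.5 log2 units in opposite directions in the lines. With 1 library per group the difference was not tested. MYC had a log2 change of -1.09 in 22Rv1 and 1.72 in PC3. CDKN1A, the p21 gene, had a log2 change of -0.80 in 22Rv1 and 0.51 in PC3. No member moved in opposite directions at that size.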

How the results depend on the processing

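All member changes within a line kept their sign in the 7 alternatives, over ranges of 2.41 to 3.19 (22Rv1) and 2.03 to 2.40 (PC3) for GADD45B and 0.45 to 0.70 and 1.76 to 2.02 for GADD45A. With a pseudocount of 0.1, 2 members were past 2-fold in 22Rv1, since GADD45G reached 1.03. Genes at least 2-fold higher and lower then numbered 844 and 376 in 22Rv1 (main 465 and 136) and 259 and 680 in PC3 (main 160 and 341). With a pseudocount of 5 they numbered 151 and 33, and 74 and 85. Equal sums gave 255 and 351 in 22Rv1, and a filter at 5 FPKM 105 higher in PC3. Leaving GADD45G out of the sum put the GADD45B share of 22Rv1 at 44.3% untreated and 81.8% treated.

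Limma called 49 genes higher and 33 lower. It called 18 and 15 with a pseudocount of 5, 163 and 115 with median-ratio size factors, 300 and 1234 with equal sums, and 257 and 239 with upper quartile scaling. A filter at 5 FPKM gave 100 lower, and no mean trend 29 higher. No filter gave 0 and 0 (2323 at an unadjusted p below 0.05), where 30922 genes were tested, and no line term gave 0 and 0 (54). GADD45B stayed at 2.65 without a filter (adjusted p = 0.657) and without the line term (adjusted p = 1). GADD45A was called with median-ratio factors (1.30, adjusted p = 0.0332), equal sums (1.14, 0.000739), upper quartile scaling (1.29, 0.0113) and a filter at 5 FPKM (1.28, 0.0373). Its adjusted p ranged from 0.000739 to 1. The cause was not tested. The reported fit is paired by line, and its calls were lost without that pairing, as given above.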
